A study of Mus musculus with 12 samples.

Results

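The muscle miRNAs described here are the arms of miR-1a, miR-1b, miR-206, miR-133a and miR-133b. They were chosen by name (among them mmu-miR-206-3p, mmu-miR-1a-3p, mmu-miR-133a-3p and mmu-miR-133b-3p, with the prefix of the mouse dropped hereafter), and 11 of the 1042 miRNAs in the table belonged to them. Their high level in mouse embryonic fibroblasts (MEFs) was known when they were chosen, so the comparison of MEFs with the other cells is given as a description with no test. Small RNAs of 18 to 30 nt had been sequenced from 12 libraries of 5 cell types: 3 of MEFs, 3 of embryonic stem cells (ESCs), and 2 each of induced pluripotent stem cells (iPSCs), embryonic stem cells made by nuclear transfer (NT-ESCs) and NT-iPSCs. The MEFs were C57B6/129SvJae F1 cells, and the ESCs were the line E14 of the 129/ola strain. The iPSCs came from MEFs given dox-inducible lentiviruses for c-Myc, Klf4, Oct4 and Sox2. The NT-ESCs were derived from a MEF nucleus placed in an oocyte, and the NT-iPSCs from an iPSC nucleus placed in an enucleated oocyte. All 3 reprogrammed types had the F1 background and descended from the same MEF line, so strain and reprogramming cannot be told apart in a comparison with ESCs. By the authors' sequencing summary, each reprogrammed library had more total reads and a smaller share without an insert than any MEF or ESC library. A difference in library preparation or sequencing thus cannot be told apart from reprogramming in comparisons with ESCs or MEFs. The 4 pluripotent types were grown on irradiated MEF feeders. Each type was a single line sampled as several RNA batches, so p values rest on batches and do not measure the spread between lines of a type.

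miR-1, miR-206 and miR-133 are known as myomiRs, miRNAs of muscle. miR-1 is abundant in heart and skeletal muscle and miR-206 in skeletal muscle and its precursor cells. Both are known to favour myogenic differentiation, and miR-133 is known for its part in myoblast proliferation and for targeting serum response factor. Each miR-1 or miR-206 gene lies near a miR-133 gene, and such pairs are often transcribed together under myogenic transcription factors. The seed, bases 2 to 8 of the mature miRNA, is the main determinant of target choice.

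The hairpins of the miR-206 and miR-133b pair are shown because these 2 neighbours differed widely in reads. Mir206 lies at chr1:20679010-20679082 and Mir133b at chr1:20682769-20682887, both on the plus strand of GRCm38, with 3686 bases between them. Both lie in a noncoding transcript, Gm28653 in GENCODE and Lincmd1 in RefSeq. Mir133b lies within exon 3 of the spliced Gm28653 transcript, whereas Mir206 lies in an intron of it and overlaps the single exon of an unspliced Gm28653 transcript by 60 of its 73 bases. In the RefSeq hairpins (GRCm38.p6), capitals mark the 3p arm, the arm that held most reads.
Mir206: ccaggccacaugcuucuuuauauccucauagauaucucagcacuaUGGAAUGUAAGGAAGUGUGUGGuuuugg
Mir133b: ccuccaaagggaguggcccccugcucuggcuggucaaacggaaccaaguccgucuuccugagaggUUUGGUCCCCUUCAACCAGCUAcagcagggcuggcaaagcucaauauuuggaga

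Mature arms from RefSeq are shown with the seed in capitals, since the seed differs between the miR-206 and miR-133 families.
miR-206-3p: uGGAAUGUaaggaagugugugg
miR-206-5p: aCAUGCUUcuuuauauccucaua
miR-1a-1-5p: aCAUACUUcuuuauaugcccaua
miR-133b-3p: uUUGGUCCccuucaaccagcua
miR-133b-5p: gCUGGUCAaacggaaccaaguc
The 5p arms of miR-206 and miR-1a-1 had the same base at 20 of 23 positions and differed at 3. Of the 11 names, these 5 were matched in the RefSeq table. On chromosome 2, Mir1a-1 (chr2:180389048-180389124) and Mir133a-2 (chr2:180398379-180398482) are separated by 9254 bases, both on the plus strand and inside the noncoding gene Mir1a-1hg. A second copy of each of these hairpins, Mir1a-2 and Mir133a-1, gives the same 3p arm, so reads of miR-1a-3p and miR-133a-3p cannot be assigned to one locus. miR-133a-3p and miR-133b-3p are nearly identical and differ at the 3′ end, so the division of reads between them is uncertain.

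The promoters of both noncoding hosts, windows of 300 bases around the RefSeq start, are shown because each host carries a pair of these miRNAs. Capitals mark matches to CANNTG, the E-box motif to which myogenic bHLH factors such as MyoD bind.
Lincmd1, chr1:20669632-20669931, plus strand: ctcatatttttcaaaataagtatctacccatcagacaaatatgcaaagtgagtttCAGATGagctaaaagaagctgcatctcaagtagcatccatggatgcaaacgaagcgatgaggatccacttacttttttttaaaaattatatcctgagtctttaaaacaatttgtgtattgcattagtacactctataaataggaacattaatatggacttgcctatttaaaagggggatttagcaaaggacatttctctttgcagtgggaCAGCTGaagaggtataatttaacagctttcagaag
Mir1a-1hg, chr2:180385354-180385653, plus strand: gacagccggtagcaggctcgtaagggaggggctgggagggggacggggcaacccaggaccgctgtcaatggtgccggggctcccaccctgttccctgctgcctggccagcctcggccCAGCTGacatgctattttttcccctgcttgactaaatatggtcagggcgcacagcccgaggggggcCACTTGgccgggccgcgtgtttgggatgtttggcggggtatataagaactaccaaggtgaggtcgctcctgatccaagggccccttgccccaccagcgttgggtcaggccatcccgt
Each promoter held 2 matches to CANNTG, of which 1 was CAGCTG. Both motifs are their own reverse complement, so a match counts on both strands, and every CAGCTG is also a CANNTG. Of 32851 RefSeq promoters of the same length, 72.3% held CANNTG and 16.3% held CAGCTG, so the first motif is common in such windows. A match is a description of the letters and does not show binding.

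The deposited values are variance stabilized (VST) on a log2 scale, and whole reads were recovered from them. The miRNA reads of a library numbered at least 7867514 for MEFs, 5293867 for reprogrammed cells and 4863365 for ESCs, and at most 8608689. CPM is the read count scaled to the library's miRNA reads, and 3 reads, the limit that a count of 0 allows, correspond to a CPM of 0.348 to 0.617. Such limits and counting intervals cover counting error only. Summed markers went with the labels of MEFs and of the pluripotent cells as a whole. The 10 miRNAs of pluripotent cells (the miR-290 and miR-302 clusters) summed to a CPM of 0.869 to 9.06 in MEFs and 73662 to 184043 in the 9 pluripotent libraries. The 10 fibroblast miRNAs summed to 74480 to 104137 in MEFs. They reached 43148 to 47765 in ESCs and 15475 to 16907 in iPSCs. The nuclear transfer types lay at 37004 to 38348 (NT-ESCs) and 37872 to 43751 (NT-iPSCs).

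miR-206-3p was the dominant muscle miRNA of MEFs. It had 922249, 692791 and 846567 reads in MEF 13, 14 and 15, which made up 10.0% ± 1.05 (SD, n = 3) of all miRNA reads, and it ranked 2 among all miRNAs in each of the 3 libraries. The ESC libraries 2, 3 and 4 held 1304, 2308 and 1863 reads. There were 747 and 752 reads in iPSC 62 and 63, 2320 and 1610 in NT-ESC 71 and 72, and 2571 and 2709 in NT-iPSC 51 and 52. All 3 MEF libraries were far above the 9 pluripotent libraries, and the lowest pluripotent values were those of the iPSCs. The mean CPM was 100098 ± 10477 (SD, n = 3) in MEFs. ESCs had a mean CPM of 346 ± 69.2 (SD, n = 3), which was 0.346% of the MEF mean. The same share came to 0.132% (iPSCs), 0.282% (NT-ESCs) and 0.358% (NT-iPSCs). In bulk RNA, fewer cells that express a miRNA and less of it per cell cannot be told apart.

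miR-1a-3p, the miR-1 of mouse muscle, was the other abundant member. It had 117771, 144754 and 175168 reads in MEF 13, 14 and 15, with ranks between 10 and 12. It had 1070, 977 and 735 reads in ESC 2, 3 and 4. The reprogrammed libraries held 12570 and 11705 reads (iPSC 62 and 63), 12181 and 10208 (NT-ESC 71 and 72), and 12103 and 10657 (NT-iPSC 51 and 52). The 3 levels did not overlap: MEFs were highest, all 6 reprogrammed libraries lay between, and ESCs were lowest. Over the 732 miRNAs tested, reprogrammed libraries all lay above the ESC libraries in 36.6% and all below in 34.4%. MEFs had a mean CPM of 17943 ± 4053 (SD, n = 3), the reprogrammed cells one of 1771 ± 331 (SD, n = 6) and ESCs one of 179 ± 37.7 (SD, n = 3), so that the reprogrammed level was 9.87% of the MEF mean and the ESC level 0.995%.

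**Figure D1:**
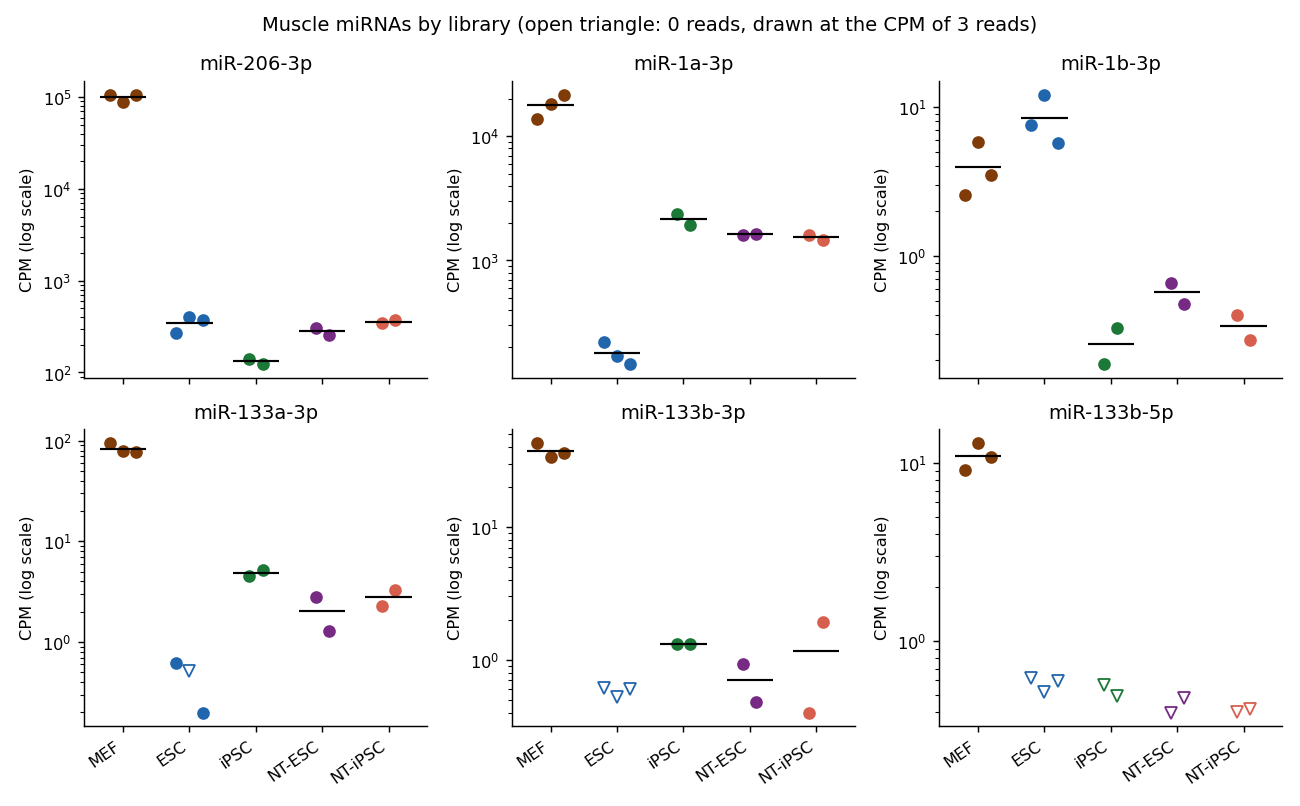
CPM (log axis) of 6 muscle miRNA arms in each library of the 5 cell types, with 1 point per library, and a bar at the group mean where every library had reads. Open triangles are libraries with 0 reads, drawn at the CPM of 3 reads, the upper limit a count of 0 allows. MEFs lie above the 9 pluripotent libraries in 5 of the panels, and in the panel of miR-1b-3p MEFs and ESCs overlap.

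The 3p arms of miR-133 were far less abundant than the 3p arms of their neighbours. miR-133a-3p had 821, 620 and 622 reads in the MEF libraries and 3, 0 and 1 in the ESC libraries. It had 24 and 32 reads in iPSCs, 21 and 8 in NT-ESCs, and 17 and 24 in NT-iPSCs. Every reprogrammed library lay above every ESC library and below every MEF library. miR-133b-3p, from the same host transcript as miR-206, had between 267 and 371 reads in the 3 MEF libraries (median CPM 36.3) and 0 in all 3 ESC libraries. It had 7 and 8 reads in iPSCs, 7 and 3 in NT-ESCs, and 3 and 14 in NT-iPSCs. In MEFs, miR-206-3p gave 2486 to 2899 reads for each read of miR-133b-3p, and miR-1a-3p gave 220 ± 70.1 (SD, n = 3) for each read of miR-133a-3p. Such ratios within a library compare reads of different sequences, whose efficiency of cloning can differ.

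The opposite arms of the same hairpins behaved differently between the families. miR-206-5p had 1, 2 and 2 reads in MEFs and 0 elsewhere, beside the 692791 to 922249 reads of its 3p arm in MEFs. miR-133b-5p had 79, 102 and 87 reads in MEFs and 0 in all 9 pluripotent libraries, so that MEFs were at least 19.0-fold higher by mean CPM than ESCs against 3 reads per ESC library. The 3p arm of miR-133b outnumbered its 5p arm by 3.56 ± 1.05 (SD, n = 3) in MEFs, and the 3p arm of miR-133a its 5p arm by 7.56 ± 1.19 (SD, n = 3). miR-133a-5p had 93, 96 and 84 reads in MEFs, 0 in ESCs and 1 to 4 in each reprogrammed library. miR-1a-1-5p was seen with 3 reads in MEF 15, and miR-1a-2-5p with 1 read in each of MEF 15, NT-ESC 71 and NT-ESC 72.

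miR-1b-3p went against the rest. Its gene overlaps Mir1a-2 on the opposite strand. It had 22, 46 and 28 reads in MEFs, 37, 70 and 29 in ESCs, 1 and 2 in iPSCs, 5 and 3 in NT-ESCs, and 3 and 2 in NT-iPSCs. MEFs and ESCs overlapped, and all 6 reprogrammed libraries were lower than both. miR-1b-5p had 0 reads in MEFs, 4, 1 and 0 in ESCs and 1 to 5 in each reprogrammed library, too few for a comparison.

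Of the 11 members, 7 had at least 10 reads in at least 2 libraries and entered the tests, and 4 did not (miR-206-5p, miR-1a-1-5p, miR-1a-2-5p and miR-1b-5p). miR-133a-5p, miR-133b-3p and miR-133b-5p passed only because of their reads in MEFs. With no read in any of the 9 pluripotent libraries, miR-133b-5p could not pass in a comparison among them, though it is counted in the 7. In 6 of the 7, all members tested except miR-1b-3p, MEFs lay above all 9 pluripotent libraries. Over all 732 miRNAs tested this held for 25.0%, but the members' level in MEFs was part of why they were chosen. On the VST scale miR-206-3p differed by 9.08 between MEFs and ESCs. Against the mean of the 4 pluripotent types it differed by 9.56, where the median over all miRNAs tested was -0.29. No such difference is given for miR-133a-3p or the other miR-133 arms, whose ESC libraries were at 0 to 3 reads.

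Reprogrammed cells were compared with ESCs to ask how far the muscle miRNAs differed between the pluripotent types. miR-1a-3p and miR-133a-3p were higher in reprogrammed cells, and miR-1b-3p was lower, in each of the 3 types against ESCs. For miR-133a-3p, at 0 to 3 reads in an ESC library, only the direction is read. miR-206-3p was lower over the 3 types together, but of the single types it passed for iPSCs alone. In limma on the VST values, 6 of the 7 members passed an adjusted p of 0.05 (Benjamini-Hochberg over the 732 miRNAs), where 82.0% of all miRNAs tested did so. Among the 6 are miR-133a-5p and miR-133b-3p, which entered the test through their reads in MEFs and set a few reads against 0 in every ESC library, so no direction is read from their calls. Against ESCs, 6 of 7 members passed for iPSCs (75.8% of all miRNAs), 5 for NT-ESCs (75.8%) and 5 for NT-iPSCs (77.6%). Shares of that size say nothing particular about the members. Their median is not read either, since they moved in both directions.

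miR-1a-3p was higher in reprogrammed cells by 3.19 ± 0.15 (SE) on the VST scale, with an adjusted p of 2.8e-09 in limma. Against ESCs the difference was 3.18 (iPSCs), 3.15 (NT-ESCs) and 3.25 (NT-iPSCs). Among the reprogrammed types, miR-1a-3p differed by -0.04 (95% interval -0.50 to 0.43) between NT-ESCs and iPSCs, by 0.07 (-0.40 to 0.54) between NT-iPSCs and iPSCs, and by 0.11 (-0.36 to 0.58) between NT-iPSCs and NT-ESCs. None of these 3 passed in limma, with adjusted p from 0.80 to 0.92.

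miR-206-3p followed another order. Reprogrammed cells lay below ESCs, with a VST difference of -0.64 ± 0.16 (SE) and an adjusted p of 0.0027 in limma. The difference was largest for iPSCs, at -1.79 ± 0.20 (SE) against ESCs (adjusted p of 8.6e-06 in limma). NT-ESCs differed from ESCs by -0.34 (95% interval -0.78 to 0.11, adjusted p = 0.15 in limma) and NT-iPSCs by 0.19 (-0.26 to 0.64, adjusted p = 0.40 in limma), so neither difference passed. Without ESC replicate 2, the ESC library with the fewest miR-206-3p reads, the NT-ESC difference became -0.52 and passed, with an adjusted p of 0.027 in limma.

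Among the reprogrammed types miR-206-3p was higher in both nuclear transfer lines than in the iPSC line. It was higher in NT-ESCs than in iPSCs by 1.45 ± 0.22 (SE, adjusted p = 0.0011 in limma) and in NT-iPSCs than in iPSCs by 1.98 ± 0.22 (SE, adjusted p = 9.2e-05 in limma). Over the other settings the lowest values were 1.09 and 1.44. Both comparisons share the same 2 iPSC libraries, and each type is a single line. NT-iPSCs and NT-ESCs differed by 0.53 (95% interval 0.04 to 1.02, adjusted p = 0.14 in limma), which did not pass. miR-206-3p was the 1 member of 7 that passed in each of the comparisons with iPSCs, where 25.7% (NT-ESCs) and 26.5% (NT-iPSCs) of all miRNAs tested passed. Among the 7, miR-133b-5p had no reads in these cells and could not pass in any comparison of them. Between NT-iPSCs and NT-ESCs 0 of 7 members passed in limma, beside 12.8% of all miRNAs, and miR-206-3p was the 1 member with an unadjusted p under 0.05 in limma (0.037). With voom 0 of 7 passed as well. In order of mean CPM, NT-iPSCs (358 ± 21.4, SD, n = 2), ESCs (346) and NT-ESCs (282 ± 34.3, SD, n = 2) gave no difference between neighbours that passed, and iPSCs (132 ± 12.4, SD, n = 2) stood below. The intervals above still allow a lower level in NT-ESCs than in ESCs.

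**Figure D2:**
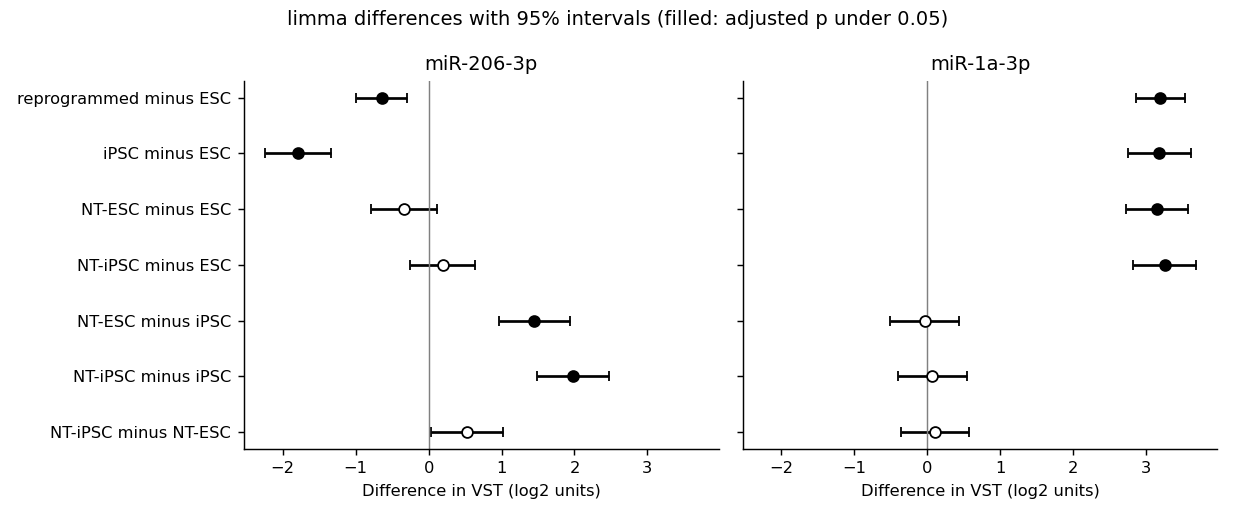
Differences in VST (log2 units, x axis) with 95% intervals from limma for miR-206-3p (left) and miR-1a-3p (right) in 7 comparisons of the pluripotent types. Filled points passed an adjusted p of 0.05. miR-1a-3p was about equally far above ESCs in the 3 reprogrammed types (3.15 to 3.25), whereas miR-206-3p differed mainly between iPSCs and the rest (-1.79 against ESCs).

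Fibroblast miRNAs were among those that moved with this difference between nuclear transfer cells and iPSCs. Of the 10 fibroblast miRNAs, 9 rose and 0 fell in limma in NT-ESCs against iPSCs, with a median VST difference of 1.58, and likewise 9 rose and 0 fell in NT-iPSCs against iPSCs, with a median of 1.96. The median over all 732 miRNAs was -0.10 in the first comparison and 0.0015 in the second. Counts for the other lists stand beside the 25.7% (NT-ESCs) and 26.5% (NT-iPSCs) of all miRNAs that passed against iPSCs. The liver miRNA miR-122-5p rose in both comparisons (1.27 and 2.11), and 2 of 3 neuron miRNAs (arms of miR-124 and miR-9) rose and 0 fell in each. Of the 11 miRNAs known from myoblasts that are described further on, 3 rose (NT-ESCs) or 4 (NT-iPSCs) and 0 fell. Of the 10 pluripotent miRNAs 0 rose and 3 fell in each, and of 4 blood miRNAs tested 0 rose in either while 2 fell in NT-ESCs and 0 in NT-iPSCs. The myoblast and pluripotent counts are near the share over all miRNAs and are not read as a shift of those lists. The part of fibroblast RNA or of feeder cells in the miR-206-3p difference was not tested. The level of the fibroblast miRNAs as a share of their MEF mean was higher than that of miR-206-3p in each pluripotent type. For single miRNAs it ran from 9.29% to 65.9% in ESCs (median 22.1%), from 0.809% to 117% in iPSCs (median 8.32%), from 1.82% to 326% in NT-ESCs (median 23.0%) and from 2.18% to 356% in NT-iPSCs (median 22.5%).

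**Figure D3:**
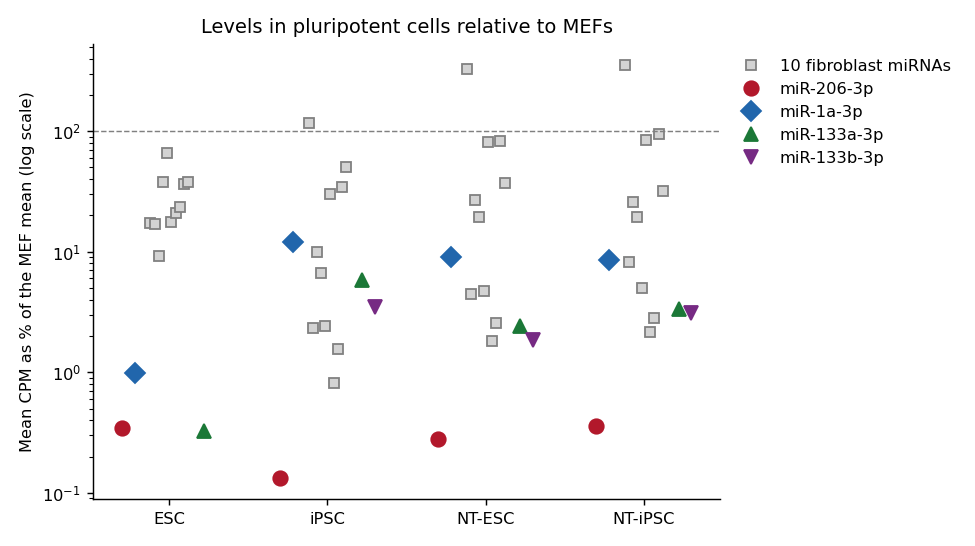
Mean CPM in each pluripotent type as a percentage of the MEF mean (log axis) for 4 muscle miRNAs and, as grey squares, 10 fibroblast miRNAs. The dashed line is the MEF mean, and miR-133b-3p has no point in ESCs because it had 0 reads. miR-206-3p lies below all grey squares in every type (0.132% to 0.358%), while miR-1a-3p lies among them in the reprogrammed types (at least 8.59%).

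The order of the 2 abundant members differed between cell types. The ratio of miR-206-3p to miR-1a-3p reads, which needs no scaling between libraries, was 7.83, 4.79 and 4.83 in MEF 13, 14 and 15 and 1.22, 2.36 and 2.53 in ESC 2, 3 and 4. It was 0.0594 and 0.0642 in iPSCs, 0.190 and 0.158 in NT-ESCs, and 0.212 and 0.254 in NT-iPSCs. miR-206-3p was the more abundant in all 6 MEF and ESC libraries, and miR-1a-3p in all 6 reprogrammed libraries. On a log2 scale with 0.5 read added, the reprogrammed libraries averaged -2.88 ± 0.91 (SD, n = 6) and the ESC libraries 0.96 ± 0.58 (SD, n = 3). The difference of -3.84 had a p of 0.012 in a two-sided exact permutation test over libraries, the smallest that the 84 arrangements can give. Libraries of a type are batches of a single line and not independent, so this p does not hold for lines. The SD of the reprogrammed libraries also includes the spread between their types. Within the reprogrammed cells, the log2 ratio of the iPSCs was the lowest.

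**Figure D4:**
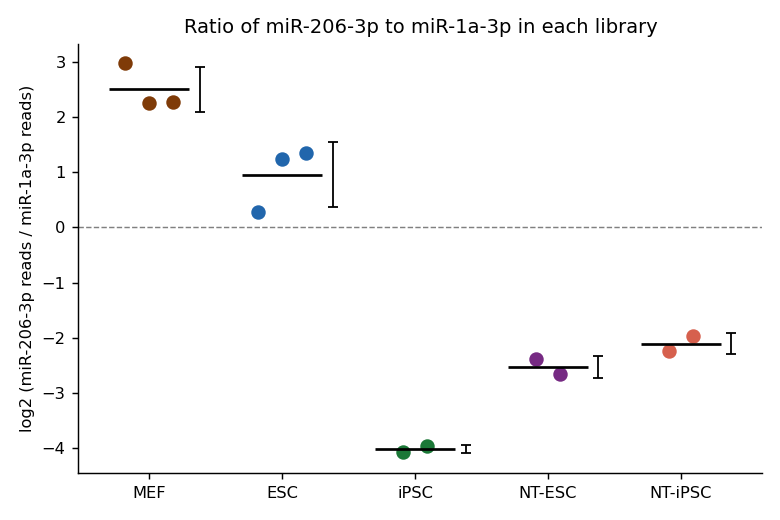
Log2 ratio of miR-206-3p to miR-1a-3p reads in each library (0.5 read added to each), with the group mean as a bar and the SD beside it. The dashed line marks equal reads. MEF and ESC libraries lie above it and all 6 reprogrammed libraries below, with a mean of -2.88 against 0.96 in ESCs.

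The miR-133 arms were compared between reprogrammed cells and ESCs at few reads. miR-133a-3p had 126 reads in the 6 reprogrammed libraries together and 4 in the 3 ESC libraries, a CPM ratio of 12.3 with a 95% exact counting interval from 4.70 to 46.0. In limma its VST difference was 3.56 ± 0.61 (SE, adjusted p = 0.00021). On log2 of normalized reads plus 1 the difference was 2.98, so its fitted size is not read. On the VST scale it was 2.59 without ESC replicate 3, the ESC library with 0 reads. Without ESC replicate 2, which held 3 of the 4 ESC reads, it was 4.36, and it passed in both cases. It passed in each reprogrammed type against ESCs, but for NT-ESCs the adjusted p rose to 0.051 in limma without NT-ESC replicate 71. miR-133b-3p had 42 reads in reprogrammed cells and 0 in ESCs, so that it was at least 1.84-fold higher by mean CPM against 3 reads per ESC library. Its fitted difference depends on how a count of 0 is transformed (3.97 on the VST scale, 2.60 on log2 of normalized reads plus 1) and is not read as a size. miR-133a-5p had 13 reads in the 6 reprogrammed libraries and 0 in ESCs, with both groups at or near the limit of 3 reads per library. The size of its difference is not read, nor is its call, as stated above. Its fitted value moved from 2.64 on the VST scale to 1.83 with voom and 1.4 on log2 of normalized reads plus 1. miR-133b-5p had 0 reads in both groups.

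miR-1b-3p was lower in reprogrammed cells by a VST difference of -4.17 ± 0.35 (SE, adjusted p = 4.2e-07 in limma). It had 136 reads in the 3 ESC libraries and 16 in the 6 reprogrammed libraries, a CPM ratio of 21.7 (95% exact counting interval 12.9 to 39.0) in favour of ESCs. miR-1a-3p and miR-1b-3p thus differed in opposite directions between the same cells.

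Among other miRNAs of heart and slow muscle, miR-499-5p was lower in MEFs than in the pluripotent libraries. The miR-208 and miR-499 arms, which lie in myosin heavy chain genes and mark heart and slow muscle, summed to a CPM of 8.44 to 11.6 in MEFs. The sum was 257 to 356 in ESCs and reached 212 to 775 in the reprogrammed libraries. Nearly all of it was miR-499-5p, with 58 to 87 reads in a MEF library, 1231 to 1791 in an ESC library and 1535 to 4101 in a reprogrammed one. The heart miRNA miR-208a-3p had 0 reads in MEFs and ESCs and at most 2 in any reprogrammed library. Its other arm, miR-208a-5p, had 0 reads in MEFs and ESCs and 1 to 8 in a reprogrammed library. miR-208b-3p had 7 to 11 reads in MEFs and at most 5 in any other library. Of the 6 arms of this list 3 were tested, and between reprogrammed cells and ESCs 0 passed as higher, 2 passed as lower and 1 did not pass (miR-499-5p, 0.16 ± 0.19, SE), beside the 82.0% of all miRNAs that passed. By single type, miR-499-5p passed as higher in iPSCs than in ESCs (0.79, adjusted p = 0.013 in limma) and as lower in NT-iPSCs than in iPSCs (-1.10, adjusted p = 0.011 in limma). The first of the 2 lower arms was miR-499-3p, with 16 to 29 reads in an ESC library and at most 1 in a reprogrammed one. It met the filter only through its ESC reads, which favours a lower call, so this call is not read. The other lower arm was miR-208b-3p, where at most 5 reads stood against at most 4, too few for its call to be read. The count of lower arms is therefore not read either.

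The 11 arms known from myoblasts, but made in many other cells, were also counted. Between reprogrammed cells and ESCs 5 rose and 6 fell in limma, beside the 82.0% of all miRNAs that passed in this comparison. The median VST difference was -0.85 over the list and 0.24 over all 732 miRNAs, and with members in both directions it describes no common shift. Those that rose included miR-221-3p (4.50 ± 0.23, SE) and miR-222-3p (4.50 ± 0.27, SE), known regulators of the cell cycle inhibitor p27. Those that fell included miR-378-3p (-3.87 ± 0.14, SE), which lies in the Ppargc1b gene, and miR-24-3p (-2.66 ± 0.14, SE). This list shares miR-214-3p with the fibroblast list. In CPM, miR-486-5p, a miRNA of muscle and blood, was at 40.3 ± 9.72 (SD, n = 3) in MEFs. It was lower in ESCs, at 3.81 ± 0.810 (SD, n = 3), and in the reprogrammed libraries, at 6.57 ± 1.09 (SD, n = 6). Others of the list went the other way. Against the MEF mean CPM, the reprogrammed level was 706% for miR-221-3p and 1475% for miR-222-3p, and the ESC level was 136% for miR-26a-5p and 109% for miR-24-3p.

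The miRNAs outside the 11 members with the pattern most like miR-206-3p were named by Pearson's r of VST values, as a description. Over the 12 libraries they were miR-351-3p (r = 0.978), miR-181a-2-3p (0.977), miR-486-3p (0.971), miR-483-5p (0.971) and miR-99a-5p (0.970). The MEF libraries set most of this likeness. Over the 9 pluripotent libraries alone they were miR-181a-2-3p (0.947), miR-10a-5p (0.916) and miR-214-3p (0.909). Of these, miR-214-3p had a mean CPM of 746 in MEFs, 280 in ESCs, 49.3 in iPSCs, and the nuclear transfer types stood at 143.7 (NT-ESCs) and 144.2 (NT-iPSCs). Among the members, r with miR-206-3p over the 12 libraries was 0.986 for miR-133b-5p, which had reads in MEFs alone, 0.829 for miR-1a-3p and 0.825 for miR-133a-3p. Over the 9 pluripotent libraries it was -0.400 for miR-1a-3p and -0.499 for miR-133a-3p, but 0.527 for miR-1b-3p (0.592 over the 12 libraries). The points of each correlation share library depth and scaling.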

How the data were processed

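The 12 small RNA libraries were placed in 5 cell types by their labels. The authors trimmed adaptors, discarded poor and contaminating tags and assigned the rest to miRNAs. The authors deposited DESeq-normalized values after variance stabilization, on a log2 scale. The authors' processing notes name mm8 and DESeq, with no version. The aligner and miRBase release are not given in the sources used here. The table holds miRNA names and no coordinates, and positions are those of GENCODE M21 and RefSeq (GRCm38).

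The transformation was inverted, which gave whole reads (tolerance 0.05) for 100% of nonzero values. Recomputed values differed from the deposited ones by at most 2.9e-06. Reads served for depth, CPM, ratios and filters. Replicate libraries were not copies of each other: the chi-square of their reads, divided by its degrees of freedom, was 46.4 or more.

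limma 3.58.1 (R 4.3.3) was fitted to the deposited log2 values with 5 group means over all 12 libraries and a trend, on the 732 miRNAs that reached 10 reads in 2 or more libraries, and was tested on simulated data. Other steps used scipy 1.17.1, numpy 2.4.6, matplotlib 3.10.9 and pandas 2.3.3 in Python 3.11.15. Every member was named, with the 5 most similar miRNAs over 12 libraries and the 3 over 9. The members and lists were chosen with earlier results of these data known. Alternatives were 4 scalings, log2 of normalized reads, voom, 2 filters, other fits, summed miR-133 arms, and each library left out.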

Additional observations from a re-analysis of the deposited data

How the results depend on the processing

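Strain and reprogramming, 1 line per type, and 2 libraries per reprogrammed type limit the comparisons. So does the sequencing output, in which the reprogrammed libraries differed from all MEF and ESC libraries, as given at the start. At few reads, as for miR-133b-3p and miR-133a-5p outside MEFs, depth limits what can be seen. No paired analysis was possible because no 2 groups have a replicate number in common. The ratio of miR-206-3p to miR-133b-3p was not compared between reprogrammed cells and ESCs, since miR-133b-3p had 0 reads in every ESC library.

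With a filter of 100 reads per library in some group, 3 members instead of 5 passed for NT-ESCs against ESCs and 3 instead of 5 for NT-iPSCs against ESCs, because fewer members were tested. For miR-206-3p, NT-iPSCs minus ESCs turned from 0.19 to -0.0042 with TMM-type scaling, and neither passed. The MEF minus ESC difference of miR-206-3p, 9.08 as deposited, was 8.57 with TMM-type scaling, 9.44 with the upper quartile, 8.19 with total miRNA reads and 8.34 with the total without miR-206-3p. Against the mean of the pluripotent types it was 9.56 as deposited, and 9.18, 9.90, 8.59 and 8.74 with TMM-type scaling, the upper quartile, total reads and the total without miR-206-3p. Without the 10 most abundant other miRNAs its share of MEF reads was 25.6%. Scaling to total reads moved the median of all miRNAs by up to -0.54 (NT-iPSCs minus iPSCs).
Small miR-1a-3p differences among reprogrammed types changed sign and passed in no setting. They became 0.091 (NT-ESC minus iPSC, upper quartile), -0.47 with either total (NT-iPSC minus iPSC) and -0.077 with either total (NT-iPSC minus NT-ESC).
Leaving out each library in turn, miR-206-3p ran from -0.83 to -0.50 for reprogrammed minus ESC, -1.97 to -1.65 for iPSC minus ESC, -0.52 to -0.20 for NT-ESC minus ESC (passing without ESC replicate 2, as given above), 0.0081 to 0.33 for NT-iPSC minus ESC, 1.36 to 1.55 for NT-ESC minus iPSC, 1.93 to 2.03 for NT-iPSC minus iPSC and 0.43 to 0.62 for NT-iPSC minus NT-ESC. Its MEF minus ESC difference ran from 8.90 to 9.22, its share of MEF reads from 9.66% to 10.6%, and the difference in log2 ratio to miR-1a-3p from -4.17 to -3.60. For reprogrammed minus ESC, miR-133a-3p ran from 2.59 to 4.36. The members passing for NT-ESC against ESC numbered 4 to 6. The sign changed in miR-1a-3p for NT-ESC minus iPSC (-0.088 to 0.018) and NT-iPSC minus iPSC (-0.012 to 0.15), of which none passed.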
